A study of Mus musculus with 9 samples.

Results

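The ErbB group holds the EGF receptor, its relatives and the ligands that bind them. The list had 10 genes, of which 7 encode ligands (Areg, Ereg, Hbegf, Tgfa, Btc, Egf and Nrg1) and 3 encode receptors (Egfr, Erbb2 and Erbb3). Members were the probesets whose array annotation names one of these genes alone, with the probeset of the highest mean kept, and 9 of the 10 genes were found among 19938 named genes. Areg was matched to no probeset by this annotation and was not analysed here. All 9 matched members passed the filter on dim genes, a mean log2 value of 4.716 over the arrays, and each had 1 such probeset.

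Heme-fed mice received a Westernized high-fat diet containing 0.2 µmol heme per g and were killed on day 2, 4, 7 or 14, and control mice ate that diet with no heme and were killed on the same days or at the end of the run-in (day 0). All were male C57BL/6J mice aged 9 to 11 weeks that had eaten the control diet, with 40% of its energy as fat, for a run-in of 1 week. Epithelium was scraped from the opened colon, RNA was pooled from 4 mice of a diet and day (3 for the control pool of day 2), and each pool went on 1 whole-transcript array, giving 4 heme pools and 5 control pools. No diet and day had a second pool, so pools of different days stood in as replicates and single animals could not be compared. Values are log2 expression, and changes in the number of cells of a type cannot be told apart from changes in RNA per cell in such scrapings.

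ErbB ligands are made as membrane-anchored precursors, and proteases of the ADAM family release them. Egf, Tgfa and Areg bind the EGF receptor, Hbegf, Btc and Ereg bind it and Erbb4, and the neuregulin Nrg1 binds Erbb3 and Erbb4. Bound receptors pair, phosphorylate each other and signal through the Ras-MAP kinase and PI3-kinase routes. In the gut these signals promote proliferation, migration and repair of the epithelium.

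The arrays had medians between 5.895 and 5.963 log2, the lowest in the heme pool of day 14. Colon markers were present: the colonocyte carbonic anhydrase Car1 averaged 13.4 log2, the anion exchanger Slc26a3 11.9 and the goblet mucin Muc2 13.2 over the 9 pools, and all 7 pan-epithelial markers lay above the filter. Exocrine pancreas markers (6 of 8 matched, none below the filter) averaged 9.43 log2 in the heme pool and 8.95 in the control pool of day 2. In the remaining pools they lay between 5.59 and 5.76 with heme and between 5.60 and 5.72 without. The heme pool of day 14 also stood apart, since 27.1% of the 14953 genes tested differed between it and the control pools.

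Promoter windows of 300 bases, 250 before and 50 after the annotated start, were available for 5 of the 9 members (Egf, Btc, Tgfa, Egfr and Erbb2) from RefSeq on GRCm38.p6. The windows of Egf and Egfr are shown because these were the ligand and the receptor called lower by limma in the heme pool of day 14. Egf lies at chr3:129755273-129755572 on the minus strand and Egfr at chr11:16751953-16752252 on the plus strand. Both are written 5′ to 3′ along the gene. A further start of Egf in the same table is not shown. Capitals mark the motif GGGCGG on either strand, the GC box bound by Sp1-type factors.
Egf: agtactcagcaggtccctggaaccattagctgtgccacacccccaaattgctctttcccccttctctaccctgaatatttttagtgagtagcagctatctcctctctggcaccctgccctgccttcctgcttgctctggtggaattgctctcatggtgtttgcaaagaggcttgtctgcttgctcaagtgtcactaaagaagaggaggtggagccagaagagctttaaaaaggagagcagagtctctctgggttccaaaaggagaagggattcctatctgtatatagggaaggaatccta
Egfr: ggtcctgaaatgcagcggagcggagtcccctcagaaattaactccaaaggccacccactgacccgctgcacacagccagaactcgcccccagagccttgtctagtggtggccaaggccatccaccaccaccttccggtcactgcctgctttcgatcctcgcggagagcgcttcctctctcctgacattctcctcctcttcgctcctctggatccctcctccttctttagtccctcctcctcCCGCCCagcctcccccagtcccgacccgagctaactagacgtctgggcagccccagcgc
The Egfr window held 1 GC box, read on the opposite strand and beginning at position -9 relative to the start. The Tgfa window held 2, and the Egf, Btc and Erbb2 windows held 0. The motif occurs in 35.7% of all 32851 promoter windows of this length. None of the 5 genes' windows held the TATA box TATAAA, the AP-1 motif TGANTCA or the cAMP response element TGACGTCA, searched on both strands. These occur in 13.6%, 7.81% and 1.79% of all windows. No motif searched contains another, and a match describes the letters only.

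Across all days, no ErbB ligand or receptor passed the test between the diets. Of the 9 members 0 were called in limma, where a call is an adjusted p under 0.05 over all genes tested, and 0 had an unadjusted p under 0.05. Over all genes 0.669% were called and 17% had an unadjusted p under 0.05. The median log2 difference of the members was -0.043, against -0.002 for all genes tested. None of the 9 had all heme pools on one side of all control pools, a pattern seen as higher in 3.26% and as lower in 2.33% of all genes. In the plot of diet differences, the 95% interval of Tgfa is the narrowest.

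**Figure D1:**
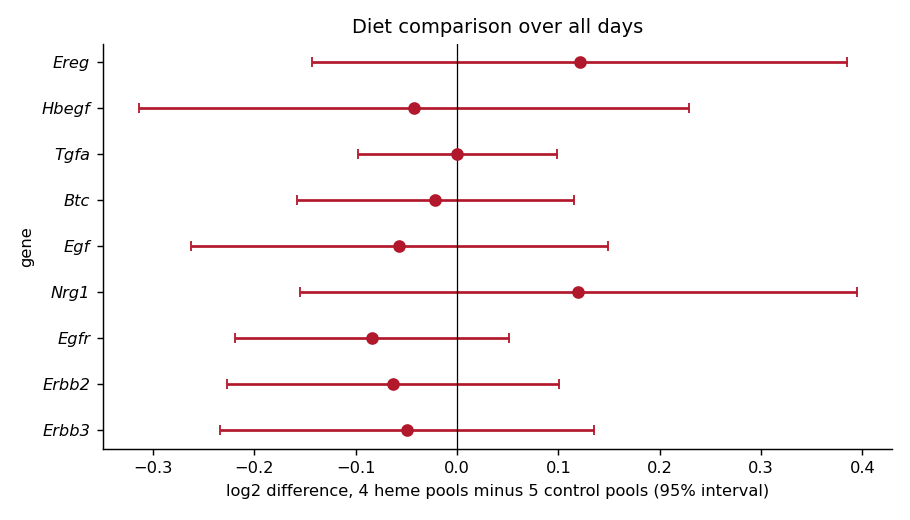
Log2 difference between the 4 heme pools and the 5 control pools (x axis) for each of the 9 members (y axis), as points with 95% intervals from limma. All 9 intervals include 0, and the upper ends of Nrg1 and Ereg lie highest, at 0.39 log2 each.

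Among the ligands, Ereg (epiregulin, probeset 10523175) stood at 5.67, 5.98, 6.18 and 6.07 log2 in the heme pools of days 2, 4, 7 and 14, against 5.74, 5.57, 5.98, 5.99 and 5.98 in the control pools of days 0, 2, 4, 7 and 14. It was low in both pools of day 2, and the 2 late heme pools lay above every control pool. The heme mean was 5.97 ± 0.22 (SD, n = 4) and the control mean 5.85 ± 0.19 (SD, n = 5), a log2 difference of 0.12 (SE 0.12, adjusted p = 0.59). The 95% interval ran from -0.14 to 0.39, and its upper end is a 1.31-fold rise. In Ereg 3 pools had the same value.

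Nrg1 (neuregulin 1, probeset 10578045), a growth factor best known from nerve and mesenchyme, stood at 5.31, 5.44, 5.73 and 5.93 log2 in the heme pools of days 2, 4, 7 and 14, against 5.40, 5.54, 5.54, 5.30 and 5.63 in the control pools of days 0, 2, 4, 7 and 14. Heme pools lay below the same day's control pool on days 2 and 4 and above it on days 7 and 14, and the groups overlapped. Over all days the log2 difference was 0.12 (SE 0.12, adjusted p = 0.61). The difference between diets was 0.53 log2 greater late (days 7 and 14) than early (days 2 and 4), with an SE of 0.19 and an adjusted p of 0.698.

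Egf (probeset 10502105), the founding member of the ligand family, had the opposite course. It stood at 6.96, 6.93, 6.69 and 6.48 log2 in the heme pools of days 2, 4, 7 and 14, against 6.72, 6.90, 6.83, 6.83 and 6.83 in the control pools of days 0, 2, 4, 7 and 14. Early heme pools were its highest values and late heme pools its lowest. The means were 6.76 ± 0.22 with heme (SD, n = 4) and 6.82 ± 0.06 without (SD, n = 5), a log2 difference of -0.06 (SE 0.09, adjusted p = 0.755). Its late-minus-early difference was -0.33 (SE 0.12, adjusted p = 0.698). Of the 5 control values 3 were identical. How this arose and what it does to the control spread was not tested.

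Hbegf (probeset 10458340), a heparin-binding ligand released during wound repair, stood at 7.55, 7.72, 7.79 and 7.76 log2 in the heme pools of days 2, 4, 7 and 14, against 7.94, 7.51, 7.44, 8.05 and 7.80 in the control pools of days 0, 2, 4, 7 and 14. All heme values lay inside the control range, which spanned 0.61 log2. The log2 difference was -0.04 (SE 0.12, adjusted p = 0.864).

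Tgfa and Btc had the narrowest ranges of the 9 members over all pools, 0.18 and 0.30 log2. Tgfa (transforming growth factor alpha, probeset 10539692) stood at 7.50, 7.56, 7.38 and 7.50 log2 in the heme pools, against 7.42, 7.50, 7.49, 7.53 and 7.50 in the control pools, in order of day. Its 95% interval ran from -0.097 to 0.098 log2, at most 1.07-fold either way. Btc (betacellulin, probeset 10531274) stood at 6.84, 6.84, 6.84 and 6.76 in the heme pools, against 6.90, 6.84, 6.70, 7.00 and 6.77 in the control pools. In Tgfa 3 pools and in Btc 4 pools had the same value, and the heme values of Btc lay inside the control range.

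In all 3 receptors the heme pool of day 14 was the lowest of the 9 pools, as it was in 28.6% of all genes tested. On the earlier days the differences of Egfr and Erbb2 from the same day's control pool varied in direction, while Erbb3 was higher each time. Egfr (the EGF receptor, probeset 10374366) stood at 8.47, 8.43, 8.40 and 8.16 log2 in the heme pools of days 2, 4, 7 and 14, against 8.46, 8.43, 8.43, 8.53 and 8.41 in the control pools of days 0, 2, 4, 7 and 14. The late heme pools lay below every control pool, that of day 7 by a margin smaller than the control spread. The means were 8.37 ± 0.14 with heme (SD, n = 4) and 8.45 ± 0.05 without (SD, n = 5), a log2 difference of -0.08 (SE 0.06, adjusted p = 0.47) with an interval from -0.22 to 0.05.

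Erbb2 (probeset 10380896), a receptor with no known ligand of its own that serves as partner to the others, stood at 9.46, 9.37, 9.27 and 9.18 log2 in the heme pools, against 9.47, 9.55, 9.26, 9.33 and 9.30 in the control pools, in order of day. Control pools of days 0 and 2 were its higher control values. The log2 difference was -0.06 (SE 0.07, adjusted p = 0.656). A further probeset shared by Erbb2 and another gene was left out.

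Erbb3 (probeset 10373467), the neuregulin receptor with weak kinase activity, stood at 11.19, 11.05, 11.05 and 10.80 log2 in the heme pools, against 11.25, 11.15, 10.95, 11.00 and 11.00 in the control pools. It exceeded the same day's control pool on days 2, 4 and 7 and lay below it on day 14. The log2 difference was -0.05 (SE 0.08, adjusted p = 0.762), and the interval ran from -0.23 to 0.14.

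**Figure D2:**
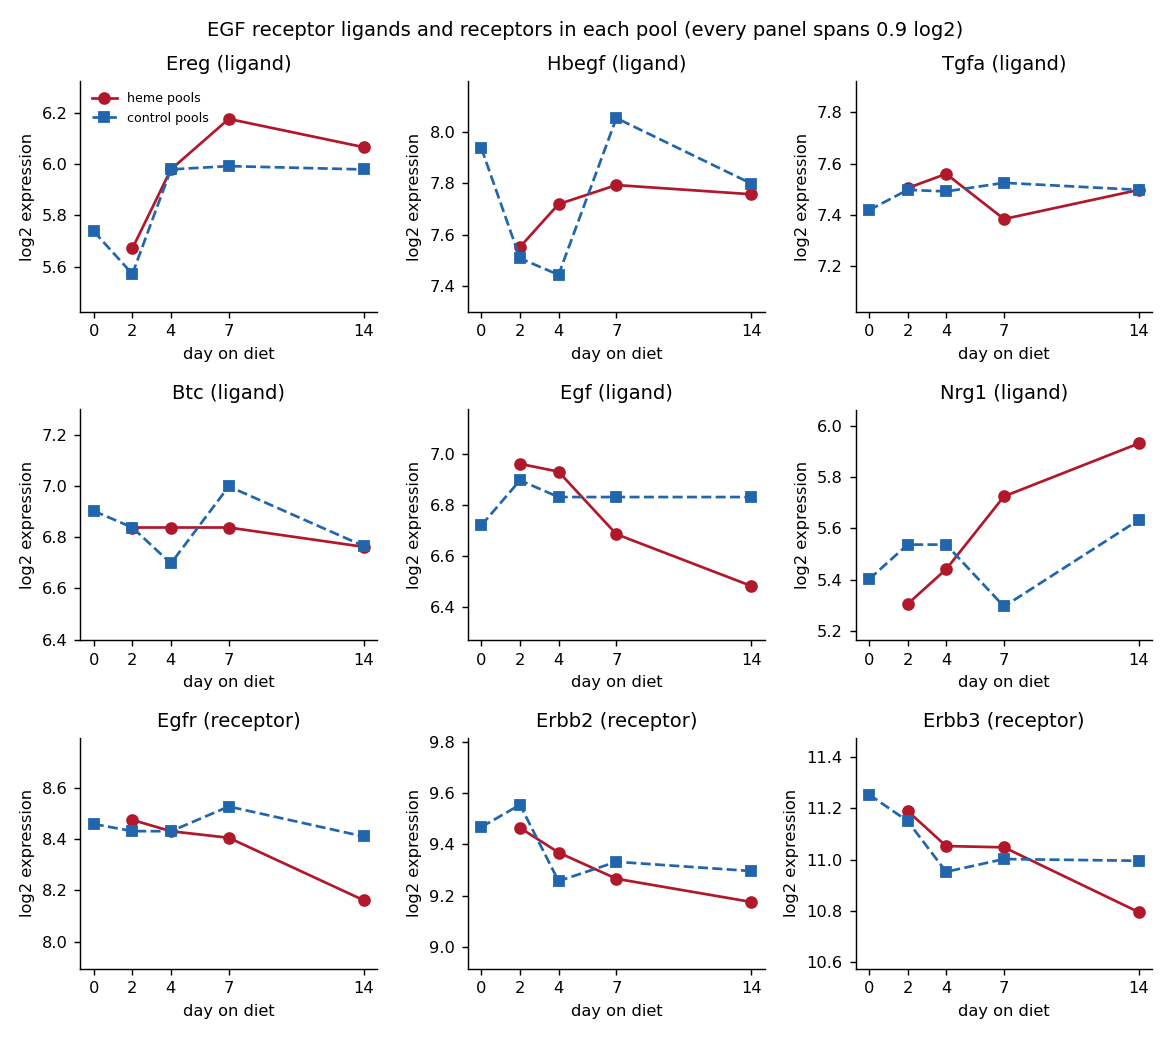
Log2 expression (y axis, each panel spanning 0.9 log2) of the 9 members against day on diet (x axis), with 1 point per pool, heme pools as circles and control pools as squares. The heme pool of day 14 is the lowest point for Egf, Egfr, Erbb2 and Erbb3 and the highest for Nrg1.

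Each heme pool was also tested alone against the 5 control pools. The spread in these tests is that of the control pools, and the same spread is assumed for the single heme pool. On days 2, 4 and 7 limma called 0 of 9 members, and 0 had an unadjusted p under 0.05. The shares of all genes called were 0%, 0.00669% and 1.63%, and those at an unadjusted p under 0.05 were 9.26%, 7.02% and 16.8%. The largest of these differences was that of Ereg on day 7, 0.32 log2 (SE 0.17, adjusted p = 0.453).

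On day 14 the call was reached by 3 of 9 members, 1 higher and 2 lower, against 27.1% of all genes tested (11.3% higher and 15.8% lower). The share of members lies near this background, so the count is not a result about the ErbB genes. Nrg1 rose by 0.45 log2 (SE 0.13), or 1.37-fold, with an adjusted p of 0.0459, and 2 of its control values are identical. Egf fell by 0.34 log2 (SE 0.07), 1.26-fold lower, with an adjusted p of 0.0202, and its SE rests on control values of which 3 are identical. Egfr fell by 0.29 log2 (SE 0.05), 1.22-fold lower, with an adjusted p of 0.0134. Erbb3 and Erbb2 had log2 differences of -0.28 (SE 0.11, adjusted p = 0.123) and -0.21 (SE 0.11, adjusted p = 0.229).

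The heme pool of day 14 was the lowest of the 9 pools for 4 members and the highest for 1, against 28.6% and 25.4% of all genes. Set against the control pool of day 14 alone, with no test, the differences were 0.30 log2 for Nrg1, -0.35 for Egf, -0.25 for Egfr, -0.12 for Erbb2 and -0.20 for Erbb3. The call of Nrg1 was lost when the control pool of day 0, 2, 4 or 7 was left out (adjusted p = 0.0881, 0.0794, 0.0765 and 0.0513). The calls of Egf and Egfr held with any 1 of the 5 control pools left out (highest adjusted p 0.047 and 0.0318). The other heme pools do not enter these differences.

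**Figure D3:**
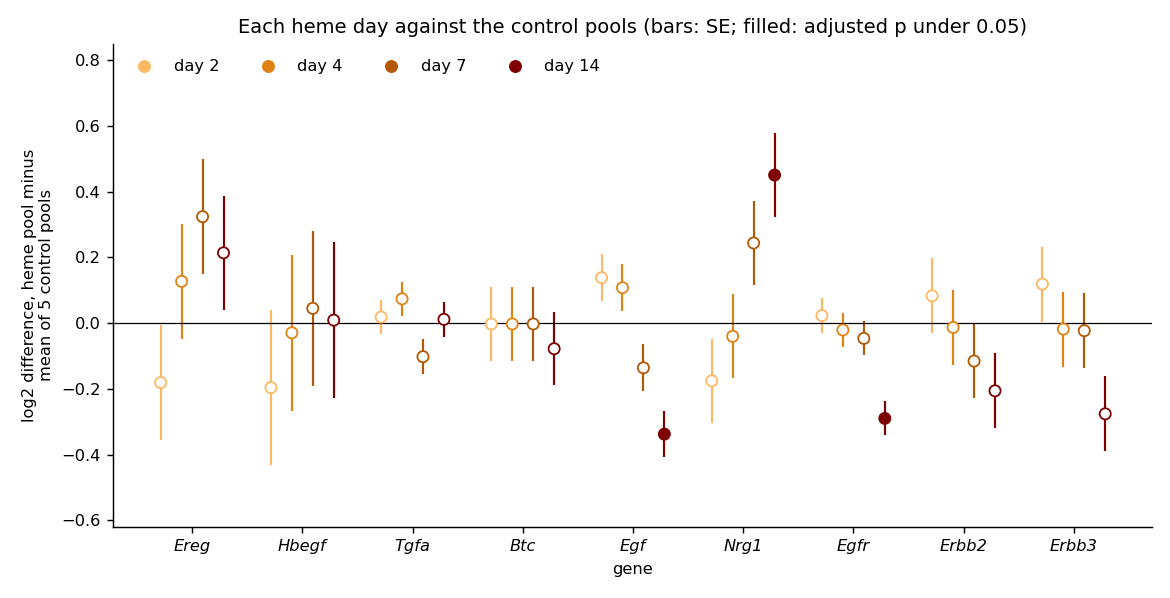
Log2 difference between each heme pool and the mean of the 5 control pools (y axis) for the 9 members (x axis), coloured by day, with SE bars and filled points for an adjusted p under 0.05. Only Egf, Nrg1 and Egfr on day 14 are filled, at -0.34, 0.45 and -0.29.

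Whether late and early diet differences diverged was tested over the 8 arrays of days 2 to 14. Limma called 0 of 9 members and 0% of all genes, with 2 members (Egf and Nrg1) and 6.62% of all genes at an unadjusted p under 0.05. The members' median late-minus-early difference was -0.15 log2, against -0.03 for all genes.

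The members moved with one another in part. Over the 9 pools Erbb2 and Erbb3 correlated with r = 0.88, Egf and Egfr with r = 0.79, and Hbegf and Btc with r = 0.71. The lowest values were r = -0.91 for Ereg and Erbb2 and r = -0.90 for Nrg1 and Egfr. All of these points share arrays, normalization and pools, so the values describe 9 arrays only.

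Of all genes tested, those most like the 3 members with the widest range were found by Pearson r over the 9 arrays. For Nrg1 they were the citrate synthase Cs (r = 0.98), the tropomyosin Tpm4 (r = 0.94) and the palmitoyltransferase Zdhhc2 (r = 0.94). For Hbegf they were Csrnp1, Chmp2a and Tsc22d2 (r between 0.92 and 0.94). For Ereg they were the receptor adaptor Grb10 (r = 0.97), Obox5 (r = 0.96) and the prostacyclin synthase Ptgis (r = 0.93). All were picked as the highest of 14953 genes over 9 arrays, so a high r is built into the choice. Cs stayed between 11.12 and 11.25 log2, and Obox5 lay near the filter, between 4.59 and 5.23.

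Markers of other cells varied widely between scrapings. Fibroblast markers (6 of 6 matched, none below the filter) averaged between 7.37 and 8.34 log2 over the heme pools and between 7.46 and 8.64 over the control pools. They were lowest in the day 2 pools, with 7.37 in the heme and 7.46 in the control pool, the pools in which Ereg was lowest too. Over the 9 pools Ereg correlated with the fibroblast mean with r = 0.78 and with the exocrine pancreas mean with r = -0.80. Macrophage markers (5 of 5 matched) averaged between 6.55 and 7.17 with heme and between 6.77 and 7.34 without, and correlated with Ereg with r = 0.73. Erbb2 correlated with the fibroblast, exocrine pancreas and macrophage means with r = -0.76, 0.71 and -0.77. The part of these cells in the values of Ereg and Erbb2 was not tested.

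On day 14 the fibroblast mean of the heme pool was 0.02 log2 below the control mean, the smooth muscle mean (6 of 6 matched) 1.05 below and the macrophage mean 0.15 above. Within the fibroblast list the values differed. Col1a1, Col1a2, Col3a1 and Pdgfra stood at 8.12, 8.45, 8.75 and 8.21 in that pool, against control means of 7.91, 8.25, 8.64 and 8.06. Dcn and Lum stood lower there, at 9.06 and 5.91, against control means of 9.47 and 6.28. Nrg1 correlated with the fibroblast mean with r = 0.42, with smooth muscle with r = -0.13 and with macrophages with r = 0.67. The smooth muscle mean ranged from 7.09 to 9.18 over the heme pools and from 7.25 to 9.90 over the control pools, highest in the control pool of day 7, where Nrg1 was lowest.

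Enteroendocrine markers (5 of 5 matched) averaged between 8.61 and 9.15 log2 over the heme pools, lowest on day 14, and between 9.12 and 9.20 over the control pools. Within the list the values differed. In the heme pool of day 14 the granins Chga and Chgb stood at 8.19 and 7.83, against control means of 9.54 and 8.89, while the hormone genes Gcg and Pyy stood at 9.69 and 9.94, against control means of 9.66 and 10.01. The secretin gene Sct stood at 7.41, against a control mean of 7.77. Proliferation markers (6 of 7 matched) averaged between 7.83 and 8.35 with heme and between 7.54 and 7.79 without. Egf and Egfr correlated with the enteroendocrine mean with r = 0.81 and 0.83 and with the proliferation mean with r = -0.62 each, and Nrg1 with r = -0.84 and 0.64. Small intestinal markers (4 of 4 matched, Defa24 below the filter) averaged between 4.69 and 5.36 with heme and between 5.01 and 5.23 without. Among them the brush border disaccharidase Sis stood at 6.64, 6.49, 5.48 and 5.04 in the heme pools of days 2, 4, 7 and 14, against 7.10, 7.52, 7.13, 7.39 and 6.92 in the control pools of days 0, 2, 4, 7 and 14. Lct and Apoa4 were not lower in the heme pool of day 14, at 5.41 and 6.00 against control means of 5.07 and 5.85. Defa24 stood at 2.31 there, against 2.44. The list mean correlated with r = -0.90 with Nrg1, 0.80 with Egf, 0.79 with Egfr, -0.80 with Ereg, 0.81 with Erbb2 and 0.74 with Erbb3. Stem and crypt base markers (4 of 4 matched, none below the filter) averaged between 6.91 and 7.02 with heme and between 6.97 and 7.06 without. In the heme pool of day 14 Lgr5, Ascl2 and Axin2 stood at 6.97, 6.37 and 7.20. Their control means were 7.13, 6.54 and 7.32. Smoc2 went the other way, at 7.16 against a control mean of 7.02. The stem and crypt base mean correlated with r = -0.82 with Nrg1 and 0.67 with Egfr. The part of these cells in the values of these members was not tested.

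**Figure D4:**
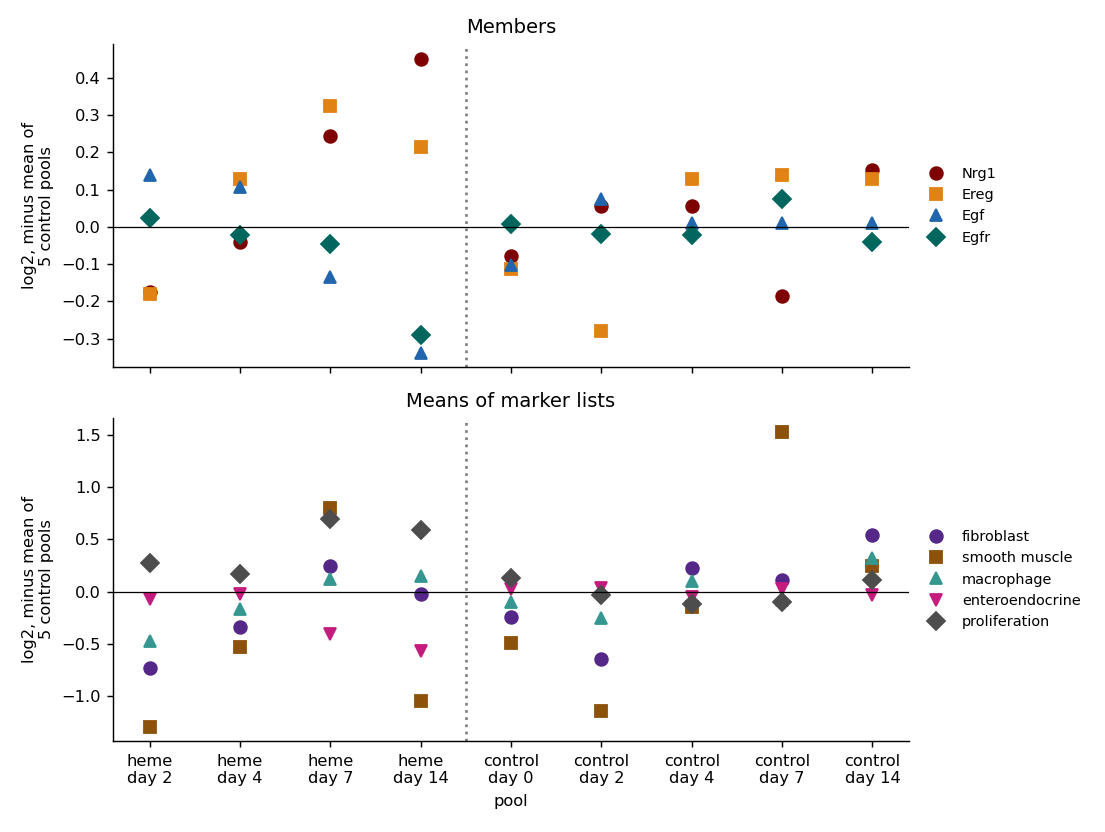
Upper panel: log2 expression of Nrg1, Ereg, Egf and Egfr minus each gene's mean over the 5 control pools (y axis), by pool (x axis, 4 heme pools left of 5 control pools). Lower panel: means of 5 marker lists, each minus its mean over the 5 control pools, with a y-axis range of its own. In the heme pool of day 14 Nrg1 is 0.45 above, Egfr 0.29 below, enteroendocrine markers 0.56 below and proliferation markers 0.59 above their control means.

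The rest of the pathway was followed through 78 genes in lists by role, of which 73 were matched and 69 tested. Over all days 0 of the 69 were called in limma, and 16 had an unadjusted p under 0.05, against 17% of all genes. Their median log2 difference was -0.03, against -0.002 for all genes. On day 14 the call was reached by 7 higher and 16 lower genes of 69, with a median of -0.02. The background shares were 11.3% and 15.8% of all genes.

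Of the further ligands and receptors, Epgn, Nrg3, Nrg4 and Erbb4 lay below the filter and were not tested. The neuregulin Nrg2 passed it and had a log2 difference of 0.12 over all days (SE 0.10, adjusted p = 0.492). Erbb4 stood at 4.57, 4.43, 4.39 and 4.58 log2 in the heme pools, against 4.54, 4.14, 4.45, 4.45 and 4.39 in the control pools.

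Of 8 genes of ligand release, 0 were called over all days, with a median of 0.03. The highest was the metalloprotease Adam12 (0.18 log2, adjusted p = 0.278) and the lowest the rhomboid protease Rhbdl2 (-0.04, adjusted p = 0.801). On day 14 1 of the 8 was called, against 15.8% of all genes called lower and 11.3% called higher. It was Adam17, the main sheddase of several ErbB ligands, which fell by 0.14 log2 (adjusted p = 0.042). Whether calls of pathway genes hold with arrays centred on their medians was not examined.

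Of 19 tested adaptors and kinases, 0 were called over all days, with a median of -0.06. The adaptor Grb2 had the highest difference (0.18, adjusted p = 0.246) and the PI3-kinase regulatory subunit Pik3r1 the lowest (-0.23, adjusted p = 0.241). On day 14 there were 6 lower and 1 higher of 19, against 15.8% lower and 11.3% higher of all genes. Pik3r1 fell by 0.55 log2 (adjusted p = 0.00469), and the MAP kinase kinase Map2k2 rose by 0.28 (adjusted p = 0.00676).

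Negative regulators had 0 of 21 called over all days, with a median of -0.03. The cytokine signal inhibitor Socs3 had a log2 difference of 0.26 (adjusted p = 0.431). The receptor phosphatase Ptprj, which can dephosphorylate the EGF receptor, had the lowest at -0.54 (SE 0.16, adjusted p = 0.174). Ptprj stood at 9.60, 9.65, 9.10 and 8.77 log2 in the heme pools, against 9.92, 9.92, 9.79, 9.83 and 9.67 in the control pools. Every heme pool lay below every control pool, as in 2.33% of all genes. It was the single pathway gene of the 69 called on day 7, against 1.63% of all genes, so the count lies near the background. Ptprj fell by 0.72 log2 on day 7 (adjusted p = 0.0333) and by 1.05 log2 on day 14 (SE 0.10, adjusted p = 0.00382). On day 14 8 of the 21 negative regulators were lower and 2 higher, against 15.8% and 11.3% of all genes. The higher genes were the MAP kinase phosphatases Dusp5 and Dusp6 (0.33 and 0.50, adjusted p = 0.0359 and 0.0416).

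Target genes of MAP kinase signalling had 0 of 20 called over all days, with a median of 0.01. The urokinase receptor Plaur stood at 6.68, 6.86, 7.03 and 7.40 log2 in the heme pools, against 6.61, 6.34, 6.11, 6.53 and 6.56 in the control pools. All its heme pools lay above all control pools, as in 3.26% of all genes. Its log2 difference was 0.56 (SE 0.15, adjusted p = 0.141), and the ETS factor Etv5 had the lowest at -0.16 (adjusted p = 0.312). On day 14, 4 of the 20 targets rose and 1 fell, against 11.3% higher and 15.8% lower of all genes. Plaur rose by 0.97 log2 (adjusted p = 0.0161), the AP-1 subunit Fosl1 by 0.81 (adjusted p = 0.0114), the early response gene Ier3 by 0.74 (adjusted p = 0.00474) and the zinc finger factor Egr2 by 0.35 (adjusted p = 0.0229). Etv5 fell by 0.35 log2 (adjusted p = 0.0466). The genes named only for day 14 were chosen after their values were seen.

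**Figure D5:**
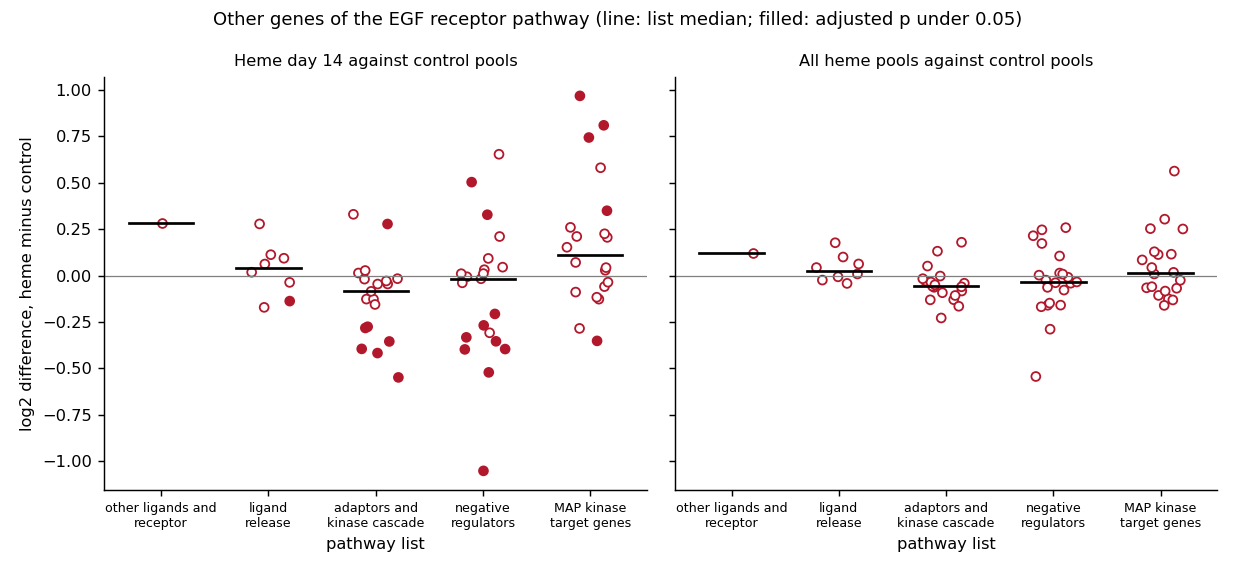
Log2 difference (y axis) of each tested gene of the 5 pathway lists (x axis), on day 14 at left and over all days at right, with the list median as a line and filled points for an adjusted p under 0.05. On day 14 7 genes are filled above 0 and 16 below it, and over all days 0 are filled.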

How the data were processed

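The deposited table holds log2 expression per probeset, which the authors made with RMA (background correction, quantile normalization and probeset summarising) per the submitters' processing notes. The RMA version is not given in these sources. Per the labels' protocols RNA of animals was pooled before hybridisation. Arrays carry no read depth, so their number limits the precision.

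Probesets took gene symbols from the platform annotation. Of 35556 probesets 21789 had 1 symbol, 1621 had several and were left out, and 12146 were unnamed here. The brightest probeset was kept for 999 genes with more than 1. Genes in the lowest 25% by mean were left out, which left 14953 to test. Models were fitted with limma 3.58.1 in R 4.3.3 (lmFit, then eBayes with an intensity trend) and p-values adjusted by Benjamini-Hochberg over all genes tested. Intervals are 95% and moderated. Scripts were tested on simulated data. P-values reflect spread between pools of different days.

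The members, gene lists and tests were chosen with earlier results of these data known. Named genes are all members, pathway genes called between the diets, the highest and lowest tested gene of each list by diet difference, and the 3 genes most correlated with each of the 3 members of widest range. For day 14, genes of a pathway list with 5 or fewer called in a direction were named as well, after their values were seen. Pools of the 2 diets share a day in the labels, not animals. Over the genes tested, their deviations from the diet's mean correlated with r = 0.658, 3.55e-05, 0.30 and 0.204 on days 2, 4, 7 and 14. Between pools of unlike days r ran from -0.475 to 0.396. The highest of these was the heme pool of day 7 with the control pool of day 14. The alternatives were other filters, no trend, averaged probesets, median-centred arrays, the day as a block and leaving out each pool. Leaving out the day 2 pools was added after the data were seen. Tables were prepared with Python 3.11.15 and pandas 2.3.3.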

Additional observations from a re-analysis of the deposited data

Results flagged for a closer look

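Of 18 sets of member values (9 genes in 2 diets), 1 had a sample far from its group. Btc in the heme pool of day 14, at 6.76 log2, lay 0.08 below the other heme pools, which had identical values of 6.84. About 1 in 20 sets without tied values would be picked out by chance. Here the other heme values were identical, so any different value, however close, would have been picked out. The value lay inside the control range.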

How the results depend on the processing

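In every alternative run the count of members called was 0 between the diets, on days 2, 4 and 7, and late minus early. With the day as a replicate block it was 0 between the diets and 0 late minus early, and no such fit was made for single days. On day 14 it was 2 or 3. Egf and Egfr stayed called with no filter, the stricter filter, no trend, centred arrays, any control pool left out and both day 2 pools left out. Centring changed the sizes on day 14, to -0.265 for Egf, -0.217 for Egfr and 0.524 for Nrg1, against -0.338, -0.290 and 0.451. Nrg1 lost its call with no filter (adjusted p = 0.0557), without the control pool of day 0, 2, 4 or 7 and without both day 2 pools (adjusted p = 0.0794), and stayed called with no trend, centred arrays and without the control pool of day 14. Averaging probesets or leaving out the other heme pools leaves these differences as they are. Genes called between the diets ranged from 30 (without the control pool of day 4) to 251 (without the heme pool of day 2) when 1 pool was left out, against 100. With 1 pool left out the uncalled diet differences ranged from -0.119 to 0.0337 for Hbegf, -0.0240 to 0.0346 for Tgfa, -0.0570 to 0.0181 for Btc, -0.122 to 0.0368 for Egf and -0.106 to 0.0260 for Erbb3, and those of day 14 from -0.0670 to 0.0857 for Hbegf and -0.00535 to 0.0213 for Tgfa, so these have no settled direction. Those of Ereg ran from 0.0511 to 0.222, of Nrg1 from 0.00946 to 0.218, of Egfr from -0.119 to -0.0147 and of Erbb2 from -0.112 to -0.0151, with Nrg1, Egfr and Erbb2 nearest 0 without the heme pool of day 14 and Ereg without the control pool of day 2. Egf and Erbb3 turned without the heme pool of day 14. With the day as a replicate block Hbegf was at 0.00427 and Tgfa at -0.0165. Centring arrays on their medians put Btc at 0.00427. Without both day 2 pools Tgfa was at -0.00264 and Hbegf on day 14 at -0.0509. Leaving out 1 pool, the block and the centring change samples, model or scale, and the cause of each sign change was not tested. Ereg and Nrg1 were not tested under the stricter filter.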
